A study of Mus musculus with 12 samples.

Results

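The genes described here encode the nuclear-encoded subunits of the mitochondrial respiratory chain in mouse liver, and they were taken by symbol. Every gene whose symbol starts with Nduf, Uqcr, Cox4, Cox5, Cox6, Cox7, Cox8 or Atp5 was included, as were Sdha, Sdhb, Sdhc, Sdhd, Cyc1 and Cycs. The array carried probes for 89 of them. A probe was counted as detected where its detection p-value, which sets its signal against negative-control beads, was under 0.01, and 80 genes were detected on at least 1 of 12 arrays, out of 9307 named genes and 2264 unnamed probes tested. Of the 80, 77 were detected on all 12 arrays. The others were Atp5k and Ndufaf3, detected on 11 arrays each, and Cox6b2, detected on 6. The 80 genes comprised 33 subunits of complex I, 7 assembly factors of complex I that share its prefix, 3 subunits of complex II, 7 of complex III, cytochrome c (Cycs), 12 of complex IV (with Ndufa4), 16 of complex V and the pseudogene Ndufs5-ps. The 9 genes detected on no array were Ndufs1, Ndufaf6, Sdha, Uqcrfs1, Cox4i2, Cox6a2, Cox7b2, Cox8b and Cox8c.

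Individual livers of 12 mice were hybridised to Illumina bead arrays, 3 mice in each of 4 groups. KO mice lacked Tmprss6, the liver serine protease that restrains hepcidin, and ate an iron-balanced diet. IDA mice were wild-type littermates made iron deficient by an iron-deficient diet for 3 weeks from 4 weeks of age. The paper reports the KO mice as iron deficient too, more anemic than IDA mice but with similar liver iron. All were 7 weeks old and of the same strain, mixed 129/Ola × C57BL/6. In KO LPS and IDA LPS mice lipopolysaccharide from Escherichia coli (LPS, 0.1 mg/kg) was injected into the peritoneum 6 hours before the livers were taken, and their untreated counterparts, KO UT and IDA UT, received saline. Diet changed together with genotype, so that their parts in any difference between KO and IDA livers cannot be told apart.

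The respiratory chain passes electrons from NADH through complex I, or from succinate through complex II, to ubiquinone, on through complex III and cytochrome c to complex IV, and so to oxygen. Protons pumped on the way drive complex V, the ATP synthase. Electrons travel along iron-sulfur clusters and hemes, so the chain depends on iron, and hepatocytes, with many mitochondria, rely on it for gluconeogenesis and urea synthesis. A few core subunits are encoded in mitochondrial DNA, and none of the 15 mitochondrially encoded genes and RNAs looked for had a probe on the array, so that every result below concerns nuclear genes.

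All values are log2 intensities after background correction and quantile normalisation, a log2 ratio is the difference between 2 group means, and a gene was called where its adjusted p from limma, corrected by the Benjamini-Hochberg method over all 11571 genes and unnamed probes, was under 0.05. Tmprss6 stood at 7.72 to 7.90 in KO LPS and 8.16 to 8.39 in KO UT livers, against 9.43 to 10.46 in IDA LPS and 10.29 to 11.21 in IDA UT livers. Between 12641 and 14423 probes were detected per liver. Xist, the RNA of the inactive X chromosome, was high (11.84 to 12.05) in KO UT 1, KO UT 2 and IDA UT 1, where the Y-linked Eif2s3y was low. The methods describe male mice. This pattern was in no LPS-treated liver (Xist 4.80 to 5.19). In both genotypes the LPS comparisons thus set livers without it against untreated groups that held it. All 10 hepatocyte markers were detected, with summed intensities of 276280 to 289660 in KO LPS, 285090 to 293820 in IDA LPS, 293430 to 311230 in KO UT and 314360 to 324680 in IDA UT livers. The 5 detected neutrophil markers summed to 3503 to 8478 in KO LPS and 14620 to 18877 in IDA LPS livers, against 818 to 1251 in KO UT and 576 to 1954 in IDA UT livers, and 5 others, the granule genes Mmp8, Camp, Ngp, Elane and Mpo, were not detected in any liver. Of the Kupffer cell and macrophage markers 10 were detected (not Cd5l), with sums of 7440 to 11796 in KO LPS and 5331 to 7052 in IDA LPS livers, against 8764 to 8907 in KO UT and 8174 to 10147 in IDA UT livers. Of the 10, 8 were called higher in KO LPS than in IDA LPS livers, against 16.1% of all genes and probes. LPS lowered 6 and raised 2 in IDA livers, where 26.0% of all were called lower and 21.9% higher. The 9 detected liver endothelial markers (not Kdr) summed to 10118 to 10625 in KO LPS and 7033 to 7218 in IDA LPS livers, against 13488 to 15918 in KO UT and 11001 to 13890 in IDA UT livers. The 8 detected stellate cell markers (not Col1a2 and Col3a1) summed to 16301 to 19441 in KO LPS and 12901 to 13801 in IDA LPS livers, against 16464 to 23474 in KO UT and 17757 to 20692 in IDA UT livers. The 3 detected erythroid markers (not Epb42) summed to 23626 to 30556 in KO LPS and 9877 to 18720 in IDA LPS livers, against 15455 to 34658 in KO UT and 6966 to 11897 in IDA UT livers. Of the cholangiocyte markers 2 of 5 on the array were detected (not Krt7, Krt19 and Epcam) and of the lymphocyte markers 1 of 7. The neutrophil, macrophage, endothelial and stellate sums did not overlap between KO LPS and IDA LPS livers or between IDA LPS and IDA UT livers. In untreated livers these sums overlapped between KO and IDA. Between KO LPS and KO UT livers only the neutrophil and endothelial sums were apart. Erythroid sums were higher in KO than in IDA livers with either treatment, without overlap. Hepatocyte sums were lower with LPS in both genotypes, also without overlap. The part of these markers in the results was not tested. In whole liver RNA, fewer cells of a type and less RNA per cell cannot be told apart.

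The members' probes were bright. Their mean log2 intensity had a median of 13.18, against 8.59 over all genes and probes tested. Atp5b, the catalytic beta subunit of ATP synthase, and Atp5g3, which encodes subunit c of its membrane ring, were the brightest, both at 15.85 and at 86.8% of the highest signal of their arrays on average. In all, 14 members exceeded 40% of the highest signal. The intensity of different probes is not a measure of relative transcript number, and it is given here only to show how close the brightest probes came to the top of the scale. Of the 20 brightest members, 3 were called lower with LPS in IDA livers, with a median log2 ratio of -0.21. Of the other 60 members 20 were, with a median of -0.27, where 26.0% of all genes and probes were called lower. Whether closeness to the top of the scale affected these values was not tested.

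LPS lowered 23 of the 80 members in IDA livers and raised none. The lowered genes included Sdhb and Sdhd of complex II, 12 subunits of complex I, the assembly factors Ndufaf4 and Ndufaf5, Cyc1 and Uqcr11 of complex III, Cox7a2 of complex IV, and 4 subunits of complex V. The decreases were modest. The gene with the least change among them fell by 17.7% and that with the most fell by 45.5%. The 23 genes made up 28.8% of the members, close to the 26.0% of all genes and probes that were called lower in this comparison, so their number alone did not set the members apart. None was called higher, against 21.9% of all genes and probes.

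The shift was broad. The log2 ratio was below 0 for 74 of the 80 members in IDA livers, against 54.2% of all genes and probes, and its median was -0.26, against -0.06 over all. The 3 IDA LPS livers lay wholly below the 3 IDA UT livers for 38 members, 47.5% of them, against 30.4% of all genes and probes. The 18 cytosolic ribosomal protein genes tested, a group known for abundant transcripts, had a median log2 ratio of -0.09, and 0 of them were called. The median deviation of the members from their own mean over the 12 livers was -0.14, -0.01 and -0.30 in the IDA LPS livers, against 0.14, 0.04 and 0.10 in the IDA UT livers. IDA LPS 3 was thus the farthest from the rest, and it was the lowest of all 12 livers for 52 of the 80 members.

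**Figure D1:**
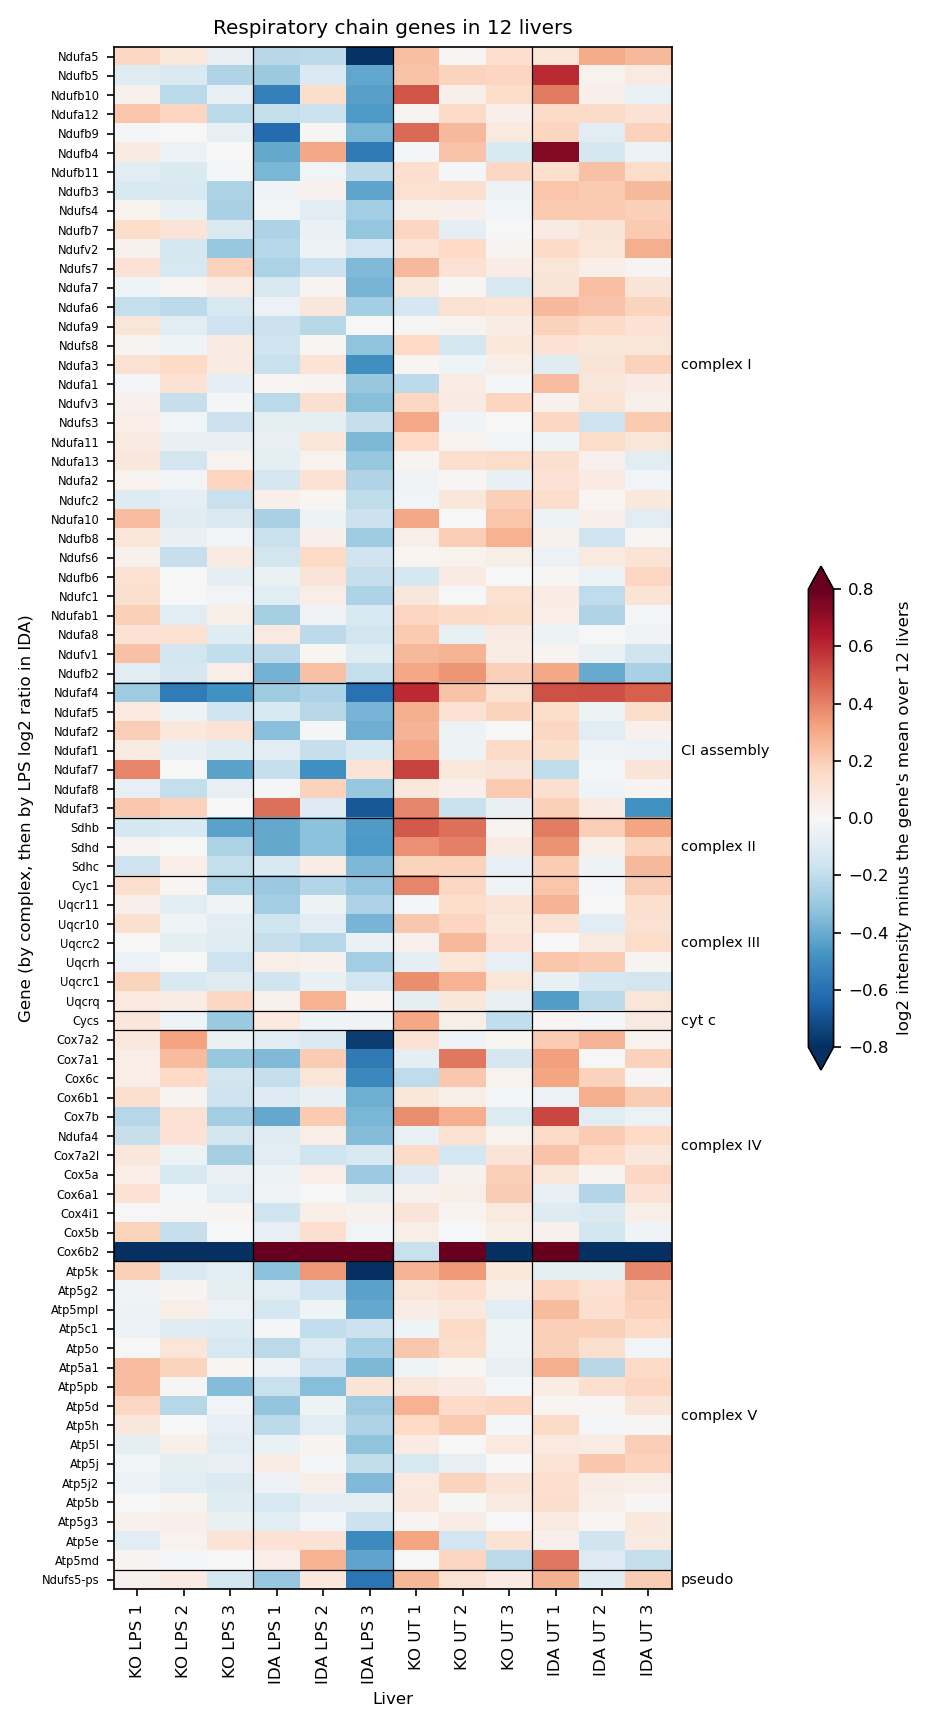
Heat map of the 80 detected members, grouped by complex, in the 12 livers (columns by group, LPS-treated KO first). Colour is the log2 intensity minus the gene's mean over the 12 livers, and the scale ends at 0.8 in either direction. The column of IDA LPS 3 holds the lowest value of 52 genes and has a median deviation of -0.30, and Cox6b2 is the row that departs from the others.

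The number of calls depended on single livers. With IDA LPS 3 left out 7 members were called, with IDA LPS 1, IDA UT 1 or IDA UT 3 left out 13, with IDA UT 2 left out 15 and with IDA LPS 2 left out 33, and without the 3 Xist-positive livers 8. All of these were lower except 1 member, called higher, where IDA UT 1, IDA UT 3 or the Xist-positive livers were left out.

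Sdhb, Sdhd, Ndufaf4, Ndufa5 and Atp5g2 were called lower in IDA livers under each of the 24 alternative settings that kept the threshold on the adjusted p alone, and each of the other 18 lost its call under at least 1 of them. For these 5 genes the RefSeq promoters (GRCm38.p6), from 250 bases before the start of transcription to 50 after it, are shown because their calls held under all of those settings. The sites searched for, on both strands, were those of factors known to act on respiratory chain genes: NRF1 (CGCANGCG), the ETS family with GABP (CCGGAAGT) and YY1 (AAGATGGCG). Capitals mark the letters of the NRF1 site, the only motif found in them, and Sdhb held none of the 3. Of the 2 listed starts of Ndufa5 the one shown lies farther from the gene's body, and both promoters hold the site.
Sdhb, chr4:140961021-140961320, plus strand: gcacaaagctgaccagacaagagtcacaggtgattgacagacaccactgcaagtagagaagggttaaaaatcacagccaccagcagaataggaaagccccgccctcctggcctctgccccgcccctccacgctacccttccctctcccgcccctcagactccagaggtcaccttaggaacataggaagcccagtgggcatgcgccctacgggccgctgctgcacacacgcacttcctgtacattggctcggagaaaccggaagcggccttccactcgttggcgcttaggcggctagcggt
Sdhd, chr9:50603800-50604099, minus strand: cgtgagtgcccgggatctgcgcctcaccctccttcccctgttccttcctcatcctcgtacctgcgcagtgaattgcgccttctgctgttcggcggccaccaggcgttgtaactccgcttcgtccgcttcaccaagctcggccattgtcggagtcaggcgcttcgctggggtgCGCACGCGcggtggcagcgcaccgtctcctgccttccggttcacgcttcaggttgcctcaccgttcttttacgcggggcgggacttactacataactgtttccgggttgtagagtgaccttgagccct
Ndufaf4, chr4:24897833-24898132, plus strand: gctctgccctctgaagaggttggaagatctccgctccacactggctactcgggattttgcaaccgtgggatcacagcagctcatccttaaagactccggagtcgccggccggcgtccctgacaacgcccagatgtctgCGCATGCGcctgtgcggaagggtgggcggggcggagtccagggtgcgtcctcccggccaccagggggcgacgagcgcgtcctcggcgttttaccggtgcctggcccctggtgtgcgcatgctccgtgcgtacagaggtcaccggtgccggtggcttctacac
Ndufa5, chr6:24527641-24527940, minus strand: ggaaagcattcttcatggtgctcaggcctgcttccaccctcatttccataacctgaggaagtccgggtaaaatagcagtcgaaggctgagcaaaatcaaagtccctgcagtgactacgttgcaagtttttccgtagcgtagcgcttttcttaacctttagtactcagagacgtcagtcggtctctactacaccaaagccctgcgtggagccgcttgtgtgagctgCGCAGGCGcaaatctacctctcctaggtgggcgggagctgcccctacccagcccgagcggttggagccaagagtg
Atp5g2, chr15:102670998-102671297, minus strand: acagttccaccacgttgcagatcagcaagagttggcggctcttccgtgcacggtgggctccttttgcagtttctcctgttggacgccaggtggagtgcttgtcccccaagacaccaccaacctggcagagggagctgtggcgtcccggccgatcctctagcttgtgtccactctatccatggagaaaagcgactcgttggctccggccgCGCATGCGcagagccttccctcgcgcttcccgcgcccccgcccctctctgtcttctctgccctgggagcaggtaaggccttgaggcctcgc

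Of the 80 members, 69 had a promoter in the RefSeq table. The NRF1 letters were found in 28 of these 69 (40.6%), against 8.21% of all 32851 promoters and 19.1% of the tested genes with a promoter. The YY1 letters were found in 8 (11.6%), against 1.4% of all promoters and 3.75% of tested genes. The ETS letters were found in 4 (5.8%), against 3.89% and 9.0%. At least 1 of the motifs stood in 13 of the 20 promoters of members called lower in IDA livers and in 23 of the 49 promoters of the other members, a description without a test. A match shows only that the letters are present.

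Complex II is succinate dehydrogenase, the enzyme shared by the respiratory chain and the citric acid cycle. Its iron-sulfur subunit gene Sdhb stood at 12.27, 12.29 and 11.98 in KO LPS livers and at 12.003, 12.09 and 11.96 in IDA LPS livers, against 12.90, 12.85 and 12.44 in KO UT livers and 12.82, 12.61 and 12.73 in IDA UT livers. Every LPS-treated liver was below every untreated one. With LPS, Sdhb fell by 31.7% in KO livers (log2 ratio -0.55, adjusted p 0.0179) and fell by 38.6% in IDA livers (-0.70, SE 0.14, adjusted p 0.0015). The second Sdhb probe gave -0.51 in KO and -0.75 in IDA livers. Without the 3 Xist-positive livers, which leaves 1 KO UT liver that is assumed to vary like the other groups, the log2 ratio was -0.26 in KO livers (adjusted p 0.446) and -0.65 in IDA livers (adjusted p 0.00426).

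Sdhd, a membrane anchor subunit that binds heme and ubiquinone together with Sdhc, stood at 9.75, 9.73 and 9.48 in KO LPS livers and 9.32, 9.40 and 9.27 in IDA LPS livers, against 10.10, 10.13 and 9.79 in KO UT livers and 10.09, 9.78 and 9.91 in IDA UT livers. The 3 IDA LPS livers were the lowest of all 12. The log2 ratio for LPS was -0.35 in KO livers (adjusted p 0.0799), and in IDA livers Sdhd fell by 33.8% (-0.59, SE 0.13, adjusted p 0.00275). Sdhc, the other anchor, had a log2 ratio of -0.28 in IDA livers (95% confidence interval -0.58 to 0.03, adjusted p 0.122) and did not pass the test. Sdha, the flavoprotein subunit, was not detected by its 1 probe on any array, and no level is given for it.

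Complex I, NADH dehydrogenase, was the largest group of members. In IDA livers 12 of its 33 subunits were called lower and 0 higher, the log2 ratio was below 0 for 32, and the median was -0.25. By module, 3 of 7 subunits of the NADH-oxidising part, 4 of 7 of the ubiquinone-reducing part and 5 of 19 of the membrane arm were called. Over all genes and probes 26.0% were called lower in this comparison. The counts by complex and module, here and below, are read against that share, and none was tested against it. Ndufa5, an accessory subunit of the ubiquinone-reducing part, stood at 13.81, 13.73 and 13.57 in KO LPS livers and 13.42, 13.44 and 12.85 in IDA LPS livers, against 13.88, 13.65 and 13.77 in KO UT livers and 13.74, 13.94 and 13.90 in IDA UT livers. The 3 IDA LPS livers lay below all 9 others. Ndufa5 fell by 35.1% in IDA livers (-0.62, SE 0.16, adjusted p 0.00594), and its second probe gave -0.54.

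The membrane arm subunit Ndufb5 had the next largest decrease. It stood at 10.05, 10.03 and 9.91 in KO LPS and 9.85, 10.03 and 9.73 in IDA LPS livers, against 10.38, 10.32 and 10.32 in KO UT and 10.74, 10.17 and 10.22 in IDA UT livers. Its log2 ratio was -0.35 in KO livers (adjusted p 0.13) and -0.51 in IDA livers (SE 0.15, adjusted p 0.0137). IDA UT 1 was well above the other untreated livers for this gene, and without the 3 Xist-positive livers, of which it is 1, the log2 ratio in IDA livers was -0.33 (adjusted p 0.0679). The other called subunits were Ndufa12, Ndufb9, Ndufb11, Ndufb3, Ndufs4, Ndufb7, Ndufv2, Ndufs7, Ndufa7 and Ndufa9, with log2 ratios between -0.41 and -0.28. Ndufs7 and Ndufv2 carry iron-sulfur clusters, and Ndufs8 and Ndufv1, which carry further clusters of the same path, had log2 ratios of -0.26 (adjusted p 0.084) and -0.03 (95% confidence interval -0.32 to 0.26). The brightest subunits, Ndufa13 and Ndufs6, had log2 ratios of -0.14 and -0.09 and were not called. Ndufs1, the largest subunit, was not detected by its 1 probe.

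Among the assembly factors, which build complex I without staying in it, Ndufaf4 had the largest decrease of any member. It stood at 10.44, 10.16 and 10.24 in KO LPS and 10.44, 10.48 and 10.12 in IDA LPS livers, against 11.32, 10.95 and 10.85 in KO UT and 11.23, 11.24 and 11.20 in IDA UT livers. The 6 LPS-treated livers lay below the 6 untreated livers, with the groups of either genotype overlapping after LPS. Ndufaf4 fell by 41.0% in KO livers (-0.76, adjusted p 0.00351) and fell by 45.5% in IDA livers (-0.88, SE 0.14, adjusted p 0.000398). Its second probe gave -0.86 in KO and -0.55 in IDA livers. Without the 3 Xist-positive livers the log2 ratio was -0.57 in KO livers (adjusted p 0.119) and -0.87 in IDA livers (adjusted p 0.00162). Ndufaf5, a methyltransferase of the assembly pathway, was also called in IDA livers (-0.32, adjusted p 0.0329), and the other 5 factors were not, among them Ndufaf1 at -0.16.

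**Figure D2:**
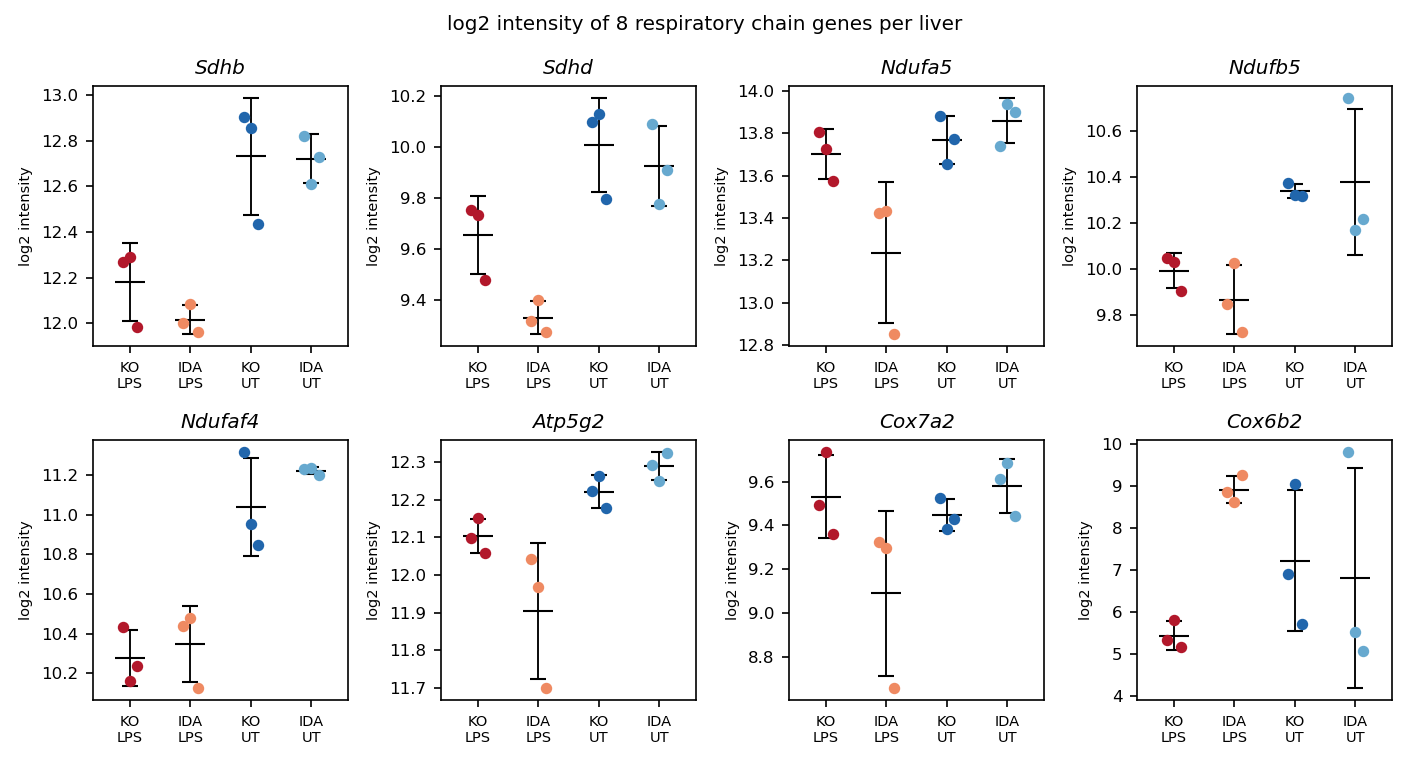
Log2 intensity of 8 members in the 12 livers. Dots are livers, bars and whiskers the group mean and SD (n = 3), with both LPS groups left of the untreated ones and KO left of IDA. Sdhb and Ndufaf4 are low in both LPS groups, Ndufa5 is lowest in the 3 IDA LPS livers, and Cox6b2 is spread from 5.08 to 9.81 over the untreated livers.

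In complex III, the cytochrome bc1 complex, 2 of 7 members were called lower in IDA livers. Cyc1, the heme-carrying cytochrome c1, stood at 12.89, 12.77 and 12.50 in KO LPS and 12.46, 12.52 and 12.45 in IDA LPS livers, against 13.14, 12.92 and 12.73 in KO UT and 12.97, 12.74 and 12.95 in IDA UT livers. The IDA LPS and IDA UT livers did not overlap, and Cyc1 fell by 25.0% (-0.42, SE 0.14, adjusted p 0.0248), while without the 3 Xist-positive livers the log2 ratio was -0.37 (adjusted p 0.0651). Uqcr11, a small accessory subunit, was called with a log2 ratio of -0.32 (adjusted p 0.0308). Uqcr10, its brightest subunit, had -0.26 (adjusted p 0.0799), and Uqcrq, which helps to hold the complex together, had 0.30 (adjusted p 0.0992), the only complex III value above 0. The Rieske iron-sulfur protein gene Uqcrfs1 was not detected by either of its 2 probes. Cycs, the mobile electron carrier between complexes III and IV, had a log2 ratio of -0.02 in IDA livers (95% confidence interval -0.32 to 0.29).

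Complex IV, cytochrome c oxidase, had 1 of 12 members called lower in IDA livers, although its median log2 ratio was -0.29. Cox7a2, the widely expressed form of subunit 7a, stood at 9.50, 9.74 and 9.36 in KO LPS and 9.32, 9.29 and 8.66 in IDA LPS livers, against 9.53, 9.38 and 9.43 in KO UT and 9.61, 9.68 and 9.44 in IDA UT livers. IDA LPS 3 stood far below the other 11 livers. The log2 ratio in IDA livers was -0.49 (SE 0.17, adjusted p 0.0353), and the call was lost without that liver and likewise without IDA UT 1 or IDA UT 2. Its paralogs Cox7a1, the form of heart and skeletal muscle, and Cox7a2l, which joins complexes III and IV into supercomplexes, had log2 ratios of -0.41 (adjusted p 0.151) and -0.28 (adjusted p 0.0716). Ndufa4, now counted with complex IV, was its brightest member and had -0.30 (adjusted p 0.0679). Cox4i1, Cox5b and Cox6a1, all bright, had 0.03, 0.07 and 0.02, the interval for Cox4i1 running from -0.18 to 0.24, and Cox6b1 and Cox7b had -0.33 (adjusted p 0.0534) and -0.32 (adjusted p 0.253). The tissue-restricted isoforms Cox4i2, Cox6a2, Cox7b2, Cox8b and Cox8c were not detected on any array.

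Cox6b2, known as the testis form of subunit 6b, had values unlike those of the other members. It stood at 5.34, 5.82 and 5.16 in KO LPS livers and at 8.85, 8.61 and 9.26 in IDA LPS livers, against 6.91, 9.03 and 5.71 in KO UT livers and 9.81, 5.52 and 5.08 in IDA UT livers. It was detected in the 3 IDA LPS livers and in the 3 Xist-positive livers, 2 in the KO UT and 1 in the IDA UT group, and in none of the KO LPS livers. With all 12 livers its log2 ratio for LPS was 2.11 in IDA livers (adjusted p 0.128). The 3 Xist-positive livers were the only untreated ones that detected Cox6b2. Leaving them out thus removes every untreated liver with a signal, and no test is read from that fit. Against the 2 remaining IDA UT livers, Cox6b2 was at least 5.37-fold higher in IDA LPS livers, a description only. The bound is the lowest detected signal of those arrays or the probe's own signal where higher.

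Complex V had 4 of 16 members called lower in IDA livers and all 16 log2 ratios below 0, with a median of -0.24. Of the F1 head 1 of 5 subunits was called, Atp5c1 (the central stalk gamma subunit, -0.31, adjusted p 0.0206), and of the stalk and membrane part 3 of 11. Atp5g2, which encodes the same mature subunit c as Atp5g3, stood at 12.10, 12.15 and 12.06 in KO LPS and 12.04, 11.97 and 11.70 in IDA LPS livers, against 12.22, 12.26 and 12.18 in KO UT and 12.29, 12.25 and 12.32 in IDA UT livers. The 3 IDA LPS livers were the lowest of the 12, and Atp5g2 fell by 23.5% (-0.39, SE 0.11, adjusted p 0.0102). Atp5mpl, a small membrane subunit, had -0.39 (adjusted p 0.0148), and Atp5o, which joins the head to the stator, had -0.30 (adjusted p 0.0451). Atp5b and Atp5g3, the brightest members, had -0.16 (95% confidence interval -0.36 to 0.04) and -0.15 (-0.35 to 0.05). The pseudogene Ndufs5-ps, whose probe may also bind other Ndufs5 transcripts, had -0.40 (adjusted p 0.0668).

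**Figure D3:**
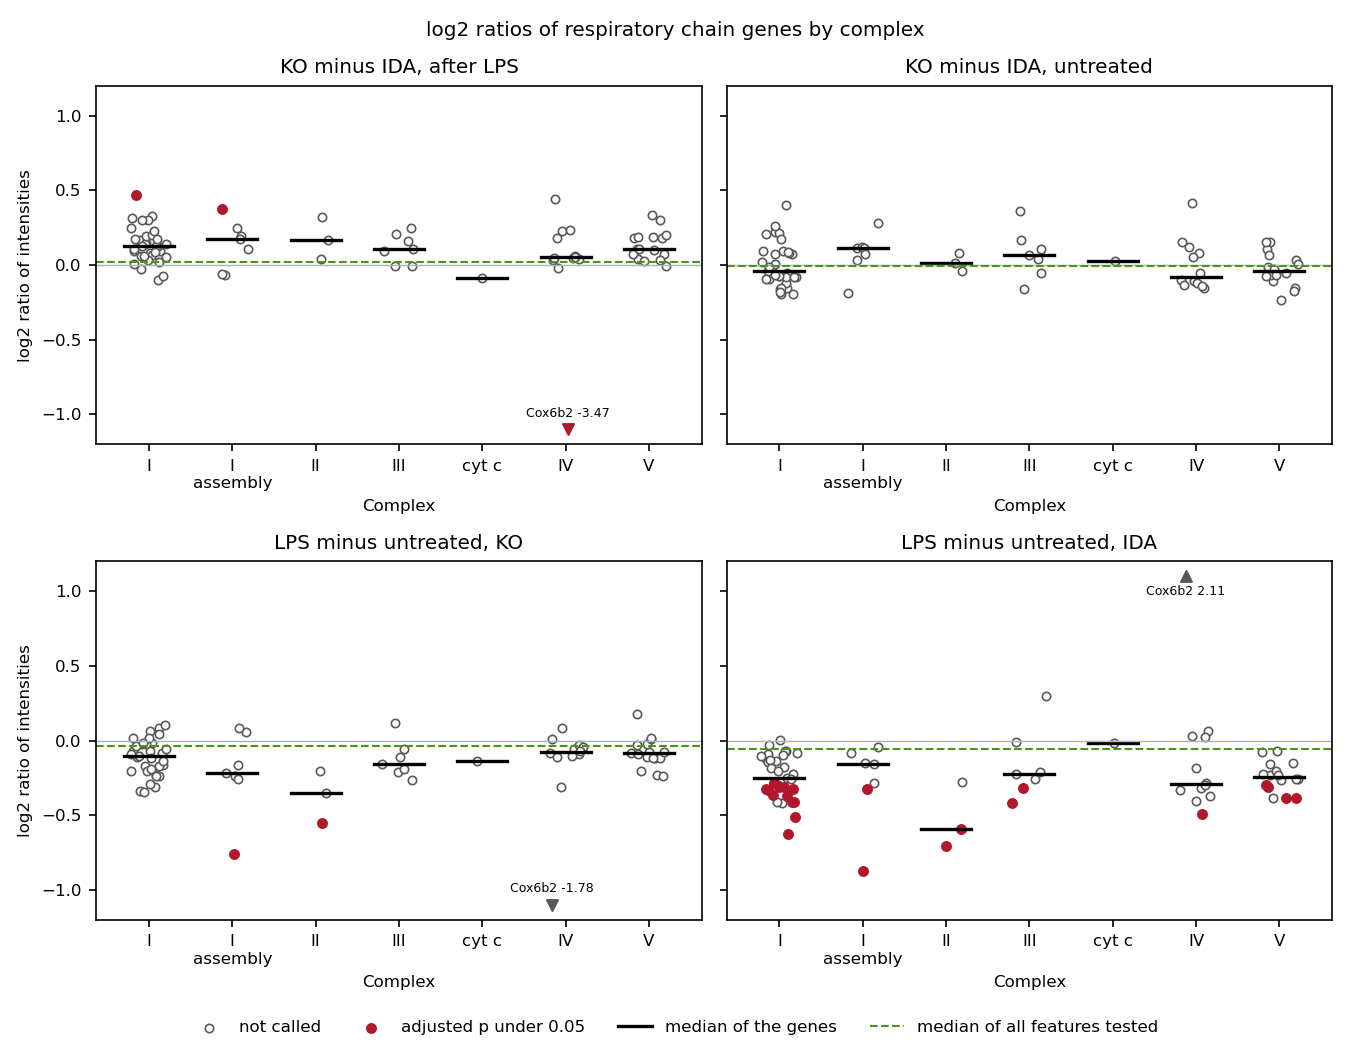
Log2 ratio of every member but the pseudogene (dots), grouped by complex, in 4 panels: KO minus IDA after LPS, KO minus IDA untreated, LPS minus UT in KO livers and LPS minus UT in IDA livers. Red filled dots have an adjusted p under 0.05, bars are the medians of the genes and the dashed line is the median of all genes and probes. In IDA livers the medians of the complexes run from -0.59 (complex II) to -0.16 (assembly factors), and Cycs, drawn by itself, has -0.02. Cox6b2 is drawn as a triangle at the edge with its value.

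In KO livers LPS lowered 2 members, Sdhb and Ndufaf4, and raised none. That is 2.5% of the members, against 8.57% of all genes and probes called lower and 10.2% called higher in KO livers, so fewer members than genes in general were called. The log2 ratio was below 0 for 66 of the 80 members, against 54.6% of all genes and probes, and the median was -0.11, against -0.04 over all. The KO LPS livers lay below the KO UT livers for 17 members (21.2%), close to the 18.9% over all genes and probes. By complex the medians were -0.35 for complex II, -0.22 for the assembly factors, -0.16 for complex III, -0.10 for complex I and -0.08 for complexes IV and V. Without the 3 Xist-positive livers, which leaves 1 KO UT liver, 0 members were called, and leaving out KO UT 1, KO UT 2 or KO LPS 3 left 1.

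The 23 genes called in IDA livers had a median log2 ratio of -0.12 in KO livers, against -0.37 in IDA livers. In KO livers 20 of the 23 were below 0, 2 were called and all 23 were smaller in size, but since these genes had been chosen by their values in IDA livers no test was made of this. The contrast of the LPS responses, KO minus IDA, called 0 of the 80 members (5.46% of all genes and probes were called higher and 5.49% lower), and 6 members had an unadjusted p under 0.05, 7.5% of them against 26.7% over all. Its median over the members was 0.12, against 0.03 over all genes and probes, and it was 0.055 without IDA LPS 3, 0.077 without KO UT 3 and 0.082 without KO LPS 1. The 95% confidence interval of a single member reached, at the median, 0.37 to either side, so differences in response of the size of these medians were not detectable gene by gene with 3 livers per group.

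For the genes described above the same contrast gave the following differences in response. Ndufaf4 had 0.12 (95% confidence interval -0.33 to 0.56) and Sdhb 0.15 (-0.28 to 0.59), with decreases in both genotypes. Ndufa5 had 0.56 (0.08 to 1.04, adjusted p 0.126), its log2 ratio for LPS being -0.07 in KO livers (-0.41 to 0.27) and -0.62 in IDA livers. Cox7a2 had 0.57 (0.04 to 1.11, adjusted p 0.156), with 0.08 in KO livers and -0.49 in IDA livers. Atp5g2 had 0.27 (-0.06 to 0.60), with -0.12 and -0.39. No difference in response is given for Cox6b2, which no KO LPS liver detected and, once the 3 Xist-positive livers are left out, no untreated liver either. Without those livers it was the 1 member called, on means at background in 3 of the 4 groups.

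After LPS, KO livers differed from IDA livers in 3 members. Ndufa5 and the assembly factor Ndufaf2 were higher in KO livers, and Cox6b2 was lower. These are 2.5% called higher and 1.25% called lower, against 16.1% and 13.7% of all genes and probes. The log2 ratio was above 0 for 69 of the 80 members, against 52.1% over all, with a median of 0.11, against 0.02. The 3 KO LPS livers lay wholly above the 3 IDA LPS livers for 8 members (10.0%, against 24.6% of all genes and probes): Sdhd, Ndufa5, Ndufs7, Ndufaf2, Cox7a2, Atp5a1, Atp5g2 and Atp5h. This comparison uses the same IDA LPS livers as the LPS response in IDA livers and the same KO LPS livers as that in KO livers, so its values are not independent of those above.

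Ndufa5 was 38.2% higher in KO LPS than in IDA LPS livers (log2 ratio 0.47, SE 0.16, adjusted p 0.041), from the values given for complex I, in which the lowest KO LPS liver (13.57) was above the highest IDA LPS liver (13.44). Ndufaf2, a chaperone bound to late intermediates of complex I, stood at 9.81, 9.70 and 9.72 in KO LPS and 9.28, 9.60 and 9.22 in IDA LPS livers, against 9.88, 9.57 and 9.61 in KO UT and 9.77, 9.53 and 9.65 in IDA UT livers. Its log2 ratio between KO LPS and IDA LPS livers was 0.37 (SE 0.13, adjusted p 0.0498). Cox6b2 was at least 6.22-fold lower in KO LPS livers, none of which detected it, than in IDA LPS livers. The limma contrast of the means, 5.44 and 8.91, gave an adjusted p of 0.0303, and the bound itself was not tested. Sdhd had 0.33 (adjusted p 0.0787) and Ndufs7 0.31 (95% confidence interval 0.07 to 0.56, adjusted p 0.0516).

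None of these 3 calls held under every alternative. With median scaling in place of quantile normalisation 0 members were called higher and 1 lower, and with the authors' normalised intensities 4 and 1, while leaving out IDA LPS 3 or KO LPS 1 gave 0 calls, leaving out IDA LPS 1, KO LPS 2, IDA UT 3 or KO UT 3 gave 1, leaving out IDA LPS 2 gave 5 and leaving out the 3 Xist-positive livers gave 1 (Cox6b2).

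In untreated livers KO and IDA did not differ in any member by limma. Of all genes and probes 2.5% were called in this comparison. At an unadjusted p under 0.05 there were 2 members, 2.5% of them, against 17.6% of all genes and probes. The log2 ratios lay above 0 for 40 of the 80 members, against 48.7% over all, and the median was -0.00. The KO UT livers lay above the IDA UT livers for 5 members and below them for 10, which is 6.25% and 12.5% of the members, against 11.0% and 11.3% over all. Uqcrc1, a core protein of complex III, had the smallest p, at 13.58, 13.49 and 13.31 in KO UT livers against 13.16, 13.08 and 13.07 in IDA UT livers. Its groups did not overlap, and its log2 ratio was 0.36 (95% confidence interval 0.11 to 0.61, adjusted p 0.125). The 95% confidence interval of a member in this comparison reached, at the median, 0.26 to either side. This interval is not adjusted for the number of features tested, and log2 ratios of up to 0.42 were not called. Differences of this size, larger than 0.26, between untreated KO and IDA livers could thus have gone undetected. Xist-positive livers were in both groups here.

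The 9 members that carry an iron-sulfur cluster or a heme were considered by themselves, because KO and IDA mice were both iron deficient. They were Ndufs7, Ndufs8, Ndufv1, Ndufv2, Sdhb, Sdhc, Sdhd, Cyc1 and Cycs. In KO livers LPS lowered 1 of the 9 (Sdhb), with a median log2 ratio of -0.21, and 1 of the other 71 members (Ndufaf4), with a median of -0.10, where 8.57% of all genes and probes were called lower. In IDA livers it lowered 5 of the 9 (Sdhb, Sdhd, Cyc1, Ndufv2 and Ndufs7), with a median of -0.31, and 18 of the other 71 (25.4%), with a median of -0.23, where 26.0% of all genes and probes were called lower. Of the 5, Cyc1 was called under 18 of 24 alternatives and Ndufv2 and Ndufs7 under 15 each. By their brightest probes, 0 of the 9 were called between KO and IDA livers after LPS (median 0.17) and 0 untreated (median 0.03). A second Cycs probe, described below, was called after LPS. These counts are descriptions, and no test was made between the 9 and the others.

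For 24 members more than 1 probe was detected, 55 probes in all. In IDA livers the LPS response of 25 of the 31 additional probes lay within 0.3 log2 units of that of the brightest probe of the gene, and that of 6 did not. Ndufab1, the mitochondrial acyl carrier protein, was the extreme case. Its brightest probe had a log2 ratio of -0.07 in IDA livers and its next brightest -0.03, while the third, designed on another transcript record, had -1.66 in KO livers, -2.32 in IDA livers (SE 0.20, adjusted p 2.94e-06) and 1.16 between KO LPS and IDA LPS livers. The second probe of Ndufa3, a membrane arm subunit, had -0.95 in IDA livers (adjusted p 0.000247) beside -0.25 for the brightest, and a difference in response of 0.73 (adjusted p 0.0465). The second Atp5a1 probe, 1 of the 31, was not detected in any IDA LPS liver, and no ratio is read from it. The p-values of this paragraph were adjusted over all detected probes. Whether these probes measure other transcripts of the genes was not tested.

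**Figure D4:**
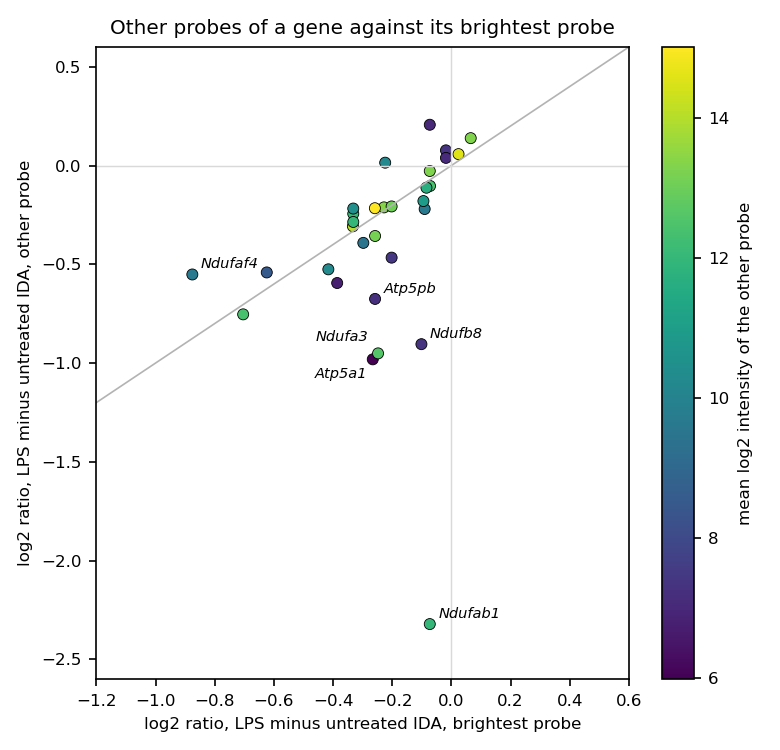
Log2 ratio of LPS against UT in IDA livers for each additional probe (vertical axis) against that of the brightest probe of the same gene (horizontal axis), 31 probes of 24 genes, coloured by the mean log2 intensity of the additional probe (1 of them, of Atp5a1, was not detected in IDA LPS livers). The diagonal marks equal values. The third Ndufab1 probe lies at -2.32, far below the diagonal, and 25 probes lie within 0.3 of it.

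The genes that regulate the respiratory chain were measured in the same livers. Of 20 tested transcriptional regulators and mitochondrial transcription and replication factors, LPS lowered 9 (45.0%) and raised 0 in KO livers (median log2 ratio -0.35), where 8.57% of all genes and probes were called lower and 10.2% higher. It lowered 11 (55.0%) and raised 3 (15.0%) in IDA livers (median -0.50), where the shares over all were 26.0% and 21.9%. Ppargc1a, the coactivator PGC-1 alpha that drives mitochondrial gene expression, stood at 8.38, 7.23 and 6.53 in KO LPS and 6.53, 6.73 and 6.93 in IDA LPS livers, against 9.90, 9.47 and 10.11 in KO UT and 10.68, 9.85 and 10.07 in IDA UT livers. It was low in all 6 LPS-treated livers, of which 1 in the IDA group did not detect it, with log2 ratios of -2.45 in KO livers (adjusted p 0.00111) and -3.47 in IDA livers (SE 0.38, adjusted p 2.16e-05). The difference between the responses was 1.03 (adjusted p 0.255).

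Its paralog Ppargc1b, PGC-1 beta, stood at 8.76, 8.31 and 8.40 in KO LPS and 6.63, 6.21 and 6.30 in IDA LPS livers, against 10.43, 9.87 and 10.44 in KO UT and 9.64, 10.32 and 10.17 in IDA UT livers. The 3 KO LPS livers lay between the IDA LPS and the untreated livers, without overlap. In KO livers its log2 ratio for LPS was -1.76 (adjusted p 0.000224). Since no IDA LPS liver detected Ppargc1b, it is given as at least 10.9-fold lower in IDA LPS than in IDA UT livers (adjusted p 2.5e-07) and at least 3.70-fold higher in KO LPS than in IDA LPS livers (adjusted p 9.27e-05). By the same bound the responses differed by at least 1.69 on the log2 scale (adjusted p 0.00367). Polg2, the accessory subunit of the mitochondrial DNA polymerase, had a log2 ratio of -0.94 for LPS in KO livers and was, by the same rule, at least 4.01-fold lower in IDA LPS than in IDA UT livers, with a difference in response of at least 1.06 (adjusted p 0.00404). The adjusted p-values beside the bounds of Ppargc1b and Polg2 belong to the limma contrasts on the measured intensities, and the bounds themselves were not tested.

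Tfb1m, a methyltransferase of the mitochondrial ribosome, went the other way, with log2 ratios of 0.19 in KO livers and 1.27 in IDA livers (adjusted p 0.000288) and a difference in response of -1.08 (adjusted p 0.0316), which was called under 13 of 23 alternatives. The next genes were chosen after their values were seen, as regulators of the subunits. Pprc1, a coactivator related to PGC-1 alpha and beta, went opposite to both, with 0.10 in KO livers and 0.93 in IDA livers (adjusted p 1.25e-05). Its difference in response was -0.83 (adjusted p 0.00404, called under 23 of 23 alternatives). Between KO LPS and IDA LPS livers Pprc1 had -0.84 (adjusted p 0.000156). Tfam, which packages and transcribes mitochondrial DNA, had -0.45 in KO livers (adjusted p 0.0378, called under 12 of 24 alternatives) and -0.83 in IDA livers (adjusted p 0.00038), and 0.56 between KO LPS and IDA LPS livers (adjusted p 0.0102). Esrra, the nuclear receptor partner of PGC-1, had -0.57 in KO livers (adjusted p 0.0313, called under 16 of 24 alternatives) and -0.56 in IDA livers (adjusted p 0.0146, 21 of 24). Nrf1, whose motif was searched above, had 0.38 in IDA livers (adjusted p 0.0759). Of the 2 subunits of GABP, Gabpa, which binds the ETS site, had 0.28 in IDA livers (adjusted p 0.213), and Gabpb1 had 0.02 in KO livers and 0.75 in IDA livers (adjusted p 0.000565), with a difference in response of -0.73 (adjusted p 0.0277) that was called under 14 of 23 alternatives. Between KO LPS and IDA LPS livers Gabpb1 had -0.69 (adjusted p 0.00266), Gabpa had -0.53 (adjusted p 0.0423, called under 9 of 24 alternatives) and Nrf1 had -0.47 (adjusted p 0.0526).

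**Figure D5:**
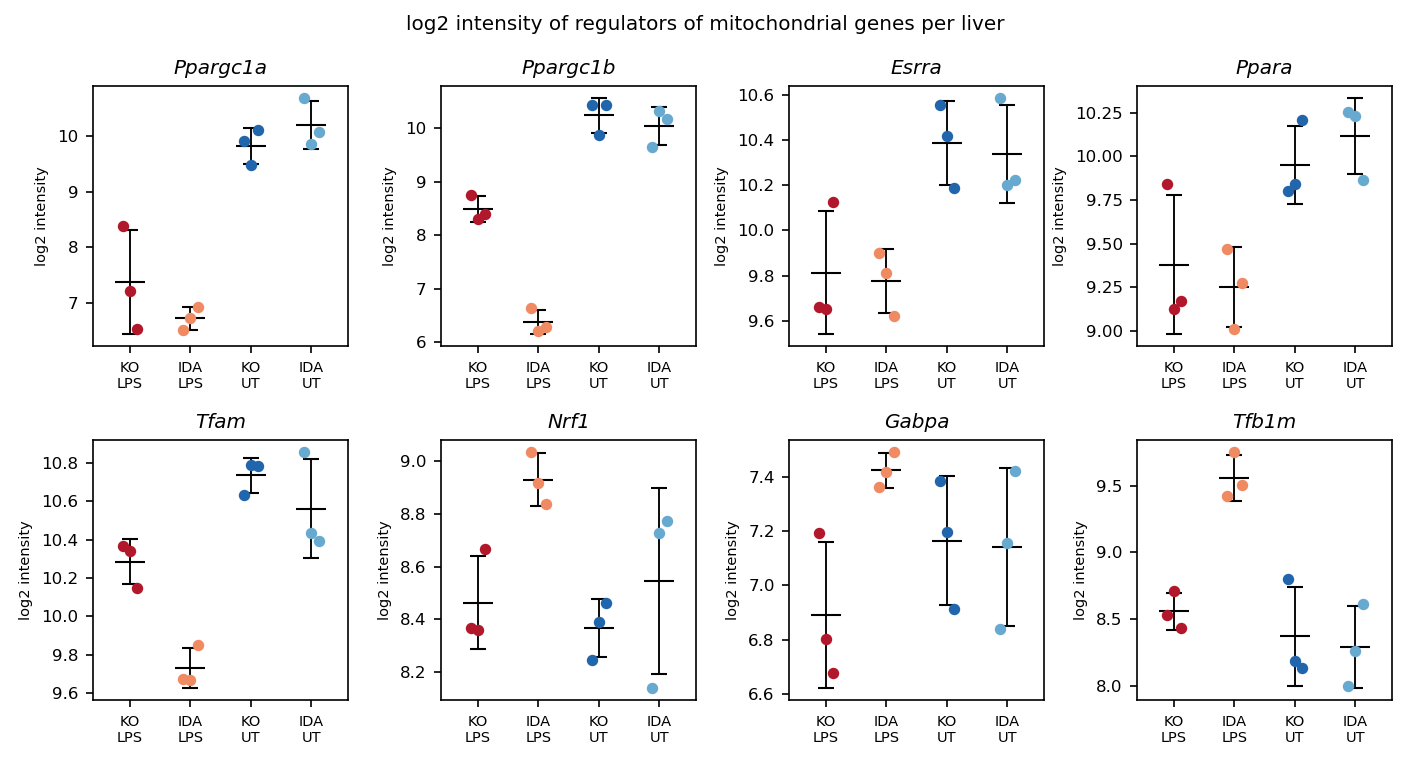
Log2 intensity of 8 regulators of mitochondrial genes in the 12 livers (dots are livers, bars and whiskers the group mean and SD, n = 3, with both LPS groups left of the untreated ones). Ppargc1a is low in both LPS groups, Ppargc1b has KO LPS livers at 8.31 to 8.76 between IDA LPS livers at 6.21 to 6.63 and untreated livers at 9.64 to 10.44, and Tfb1m is highest in IDA LPS livers.

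Further lists covered the pathways that feed, assemble and surround the chain, and their counts are read against the shares of all genes and probes, 8.57% lower and 10.2% higher in KO livers and 26.0% lower and 21.9% higher in IDA livers. Of 18 citric acid cycle and pyruvate dehydrogenase genes, 3 were lowered in KO livers (16.7%) and 8 in IDA livers (44.4%), with 0 raised in either. Pdk2, a kinase that switches pyruvate dehydrogenase off, had log2 ratios of -0.65 in KO livers (adjusted p 0.00898) and -1.76 in IDA livers (adjusted p 2.46e-06), with a difference in response of 1.11 (adjusted p 0.00715). Cs, citrate synthase, had -0.34 in KO livers (adjusted p 0.086) and -1.16 in IDA livers (adjusted p 2.23e-05), with a difference in response of 0.82 (adjusted p 0.0168). Idh3a, the catalytic subunit of the NAD-linked isocitrate dehydrogenase, had -0.76 in KO livers (adjusted p 0.00883) and -1.38 in IDA livers (adjusted p 4.69e-05). Pdk4, a second such kinase, was the 1 gene of this group higher in untreated KO than in untreated IDA livers (1.68, adjusted p 0.0489), a call that held under 7 of 24 alternatives.

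Of 35 assembly factors of complexes I to V beyond those with the Nduf prefix in the members, 4 were lowered (11.4%) and 0 raised in KO livers, and 12 were lowered (34.3%) and 5 raised (14.3%) in IDA livers. Cox10, which makes heme O for complex IV, had -0.62 in KO livers (adjusted p 0.0122) and -0.99 in IDA livers (adjusted p 0.000194), whereas Cox18, which inserts a core subunit of complex IV into the membrane, had 0.97 in IDA livers (adjusted p 4.32e-05). Of 14 genes of iron-sulfur cluster and heme assembly, 2 were lowered in KO livers (14.3%), and 5 were lowered (35.7%) and 2 raised (14.3%) in IDA livers. Isca1, which helps to build iron-sulfur clusters, had -0.55 in KO livers (adjusted p 0.00862) and -0.79 in IDA livers (adjusted p 0.000269). Slc25a28, an importer of iron into mitochondria, had 0.81 in IDA livers (adjusted p 0.000177) and a difference in response of -0.69 (adjusted p 0.0239, called under 17 of 23 alternatives).

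Of 11 coenzyme Q genes, 3 were lowered in KO livers (27.3%), and 4 were lowered (36.4%) and 2 raised (18.2%) in IDA livers. Coq10a, a coenzyme Q binding protein, had -0.41 in KO livers (adjusted p 0.0338, called under 16 of 24 alternatives) and -1.32 in IDA livers (adjusted p 4.94e-06), with a difference in response of 0.91 (adjusted p 0.00759). Coq8b went the other way and was raised by LPS in IDA livers. Its difference in response was -1.36 (adjusted p 0.00665, called under 23 of 23 alternatives). Between KO LPS and IDA LPS livers Coq8b had -1.15 (adjusted p 0.000792). Of 16 genes that feed electrons or exchange substrates, 1 was lowered in KO livers (6.25%) and 6 in IDA livers (37.5%). Gpd2, the mitochondrial glycerol phosphate dehydrogenase, had -0.72 in KO livers (adjusted p 0.00923) and -0.71 in IDA livers (adjusted p 0.00354). Of 21 import and inner membrane genes, 3 were lowered in KO livers (14.3%), the small chaperones Timm8a1, Timm9 and Timm10, and 8 in IDA livers (38.1%), these among them. Tomm22, a receptor of the outer membrane import complex, stood at 7.46, 7.75 and 7.48 in KO LPS and 7.94, 7.34 and 7.33 in KO UT livers, against 10.41, 11.35 and 10.31 in IDA LPS and 11.41, 10.63 and 10.53 in IDA UT livers. It was low in all 6 KO livers, a pattern that no respiratory chain member showed. The log2 ratios of KO against IDA were -3.13 after LPS (adjusted p 6.82e-05) and -3.32 untreated (adjusted p 0.000514). Whether loss of Tmprss6, the diet or the mixed background lowered Tomm22 was not tested. Without the 3 Xist-positive livers, which leaves 1 KO UT liver, the calls in KO livers of Pdk2, Idh3a, Cox10, Isca1, Gpd2 and the 3 chaperones were lost, as were the differences in response of Pdk2, Cs and Coq10a, and leaving out KO LPS 2 also ended the KO calls of Cox10 and Timm10.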

How the data were processed

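RNA of 12 livers was hybridised to Illumina MouseWG-6 v2 arrays and read with GenomeStudio (version not given in the sources used here). The deposited table holds, per probe and liver, the average bead signal (intensity, not normalized) and its detection p-value. The authors also deposited their own normalized intensity, made by the cubic spline method, which was used as an alternative. Slides and scan dates are not given in the sources used here. The number of arrays limits the precision.

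Average signals were background-corrected with the control distribution inferred from detection p-values, quantile-normalized and log2-transformed with neqc (limma 3.58.1 in R 4.3.3, statmod 1.5.0, offset 16). Of 45281 probes, 34885 carry 1 symbol, 18 several and 10378 none. Probes that at least 1 array detected (detection p under 0.01) were kept, and the brightest probe of each symbol, giving 11571 features. Group means of the 4 groups were fitted to all 12 arrays with limma (lmFit, eBayes) with 5 contrasts, and p-values were adjusted within each by the Benjamini-Hochberg method. For a probe undetected on every array of a group, the difference is a bound against the higher of the lowest detected signal of each array and the probe's own. An adjusted p given with such a bound is that of the limma contrast, not of the bound.

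Named were the 6 largest called members per contrast and direction, the 2 brightest of each complex, tissue-restricted isoforms, members with an iron-sulfur cluster or heme, and the 3 largest called genes per contrast of each other list. The text gives part of these. Genes outside the rule named with values (Ndufaf5, Uqcrq, Uqcrc1, Atp5c1, Atp5mpl, Atp5o, Ndufab1, Ndufa3, Pprc1, Tfam, Esrra, Nrf1, Gabpa and Gabpb1) were chosen after their values were seen. The members and lists were chosen with earlier results of these data known. No list was tested as a set. Nothing states whether livers were processed in batches, so p-values measure only the spread between these livers. The fit was tested on simulated data. Promoters were read from a RefSeq table (GRCm38.p6). The NRF1 letters were shortened to the core of the site after counts for a longer form had been seen. Figures used matplotlib 3.10.9 (Python 3.11.15). Alternatives covered median scaling, uncorrected signals, the authors' intensities, the filter, the mean over detected probes, other fits and adjustments, leaving out each liver, and the Xist-positive livers left out or given a term.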

Additional observations from a re-analysis of the deposited data

How the results depend on the processing

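The number of members called moved with the processing, while no named log2 ratio of a called gene changed sign. The median for untreated KO against IDA livers, near 0, took either sign, with 0.014 under median scaling and -0.045 to 0.039 where 1 liver was left out, and no other median of the members changed sign. For LPS in IDA livers, where 23 members were called, 35 were called with median scaling, 9 with only the compared groups, 12 with adjustment over the 5 contrasts together, 0 with an absolute log2 ratio over 1 required too, 8 without the 3 Xist-positive livers and 12 with a term for them, and leaving out 1 liver gave 7 to 33. For LPS in KO livers, where 2 were called, 1 was called with only the compared groups, 0 with the fold threshold, 0 without the Xist-positive livers, 1 with a term for them and 1 over subunits alone, and leaving out 1 liver gave 1 to 3. For KO against IDA livers after LPS, where 3 were called, 5 were called with the authors' intensities, 5 without background correction, 1 with median scaling, 6 with the mean over detected probes, 1 with only the compared groups, 1 with the joint adjustment, 1 with the fold threshold and 1 without the Xist-positive livers, and leaving out 1 liver gave 0 to 5. For untreated KO against IDA livers 1 was called with the joint adjustment in place of 0. For the difference between the responses 1 was called without the Xist-positive livers and 1 with a term for them in place of 0, and leaving out 1 liver gave 0 to 1. The cause of these changes was not tested.

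The median log2 ratio of the members was -0.40 for LPS in IDA livers and -0.24 for LPS in KO livers with median scaling, which placed the median of all genes and probes at -0.15 and -0.08. Leaving out 1 liver gave -0.28 to -0.18 for LPS in IDA livers, -0.15 to -0.08 for LPS in KO livers, 0.065 (without IDA LPS 3) to 0.20 (without IDA LPS 2) for KO against IDA livers after LPS, and 0.055 to 0.18 for the difference between the responses. Over the alternatives, the called named members kept their call in 41 of 50 values for LPS in KO livers, 220 of 275 for LPS in IDA livers and 41 of 75 for KO against IDA livers after LPS.

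The replicate numbers were not shown to pair the livers, since deviations of same-numbered livers correlated at -0.115 to 0.242 over 18 pairs and those of other livers at -0.323 to 0.281 over 36. With the replicate number as a block 0 members were called in untreated livers, 3 for KO against IDA livers after LPS, 2 for LPS in KO livers, 19 for LPS in IDA livers and 0 for the difference between responses. Dim members (Atp5k, Ndufaf3 and Cox6b2) and the undetected Sdha, Ndufs1 and Uqcrfs1 are limited by signal over background.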
